A study of Homo sapiens with 8 samples.

Results

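The comparison set arrays labelled A2780 with temsirolimus for 24 h (the 24 h arrays) against arrays labelled A2780CP20, across 18417 genes. These were 4 of the 8 arrays of the series, chosen by their titles, with 2 arrays in each group. Every gene was represented by 1 probe set that the array's annotation gives a single gene symbol. Total RNA was hybridised to Affymetrix Human Gene 1.0 ST arrays, and the deposited values are log2 intensities, so a difference of 1 is 2-fold.

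A2780 is an established human ovarian carcinoma cell line and A2780CP20 is a subline of it. The groups used here were A2780 given temsirolimus for 24 h, A2780CP20 with no treatment, A2780 given temsirolimus for 48 h, and A2780 with no treatment. All cells were grown in RPMI medium with fetal bovine serum. The temsirolimus stock was in DMSO. The labels give no dose, do not say whether the other groups received DMSO, and do not say whether the 2 replicates of a group came from separate cultures. P-values therefore measure only the spread between these arrays, which may be technical, and the number of arrays limits the precision.

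Temsirolimus is an ester of rapamycin. It binds the immunophilin encoded by FKBP1A, and the complex blocks mTORC1, the kinase complex that drives ribosome production, protein and lipid synthesis and that restrains insulin receptor signalling by feedback. A2780CP20 is known as a cisplatin-resistant derivative. Resistance to platinum drugs is commonly tied to drug and copper transporters, glutathione, repair of DNA crosslinks and loss of apoptosis. Sublines kept for long under a drug can also differ from their parent in lineage genes and in chromosome copies.

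By the distance between arrays, the 24 h arrays, which their labels make treated A2780, stood apart from all 6 others, and the arrays labelled as the subline A2780CP20 lay near untreated A2780. This goes against what the labels alone would give for a subline and a treated parent. The SD over genes of the log2 difference between single arrays was 0.655 to 0.66 for a 24 h array against an A2780CP20 array, 0.662 to 0.673 against a 48 h array and 0.66 to 0.663 against an untreated A2780 array. An A2780CP20 array differed from an untreated A2780 array by an SD of 0.316 to 0.408, and the 48 h arrays differed from the untreated ones by 0.201 to 0.244. Replicates differed by 0.169 at 24 h and by 0.287 in A2780CP20, the widest pair of the series. Array medians lay between 6.66 and 6.72. The identity of the samples was not tested, and the names below are those of the labels.

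Between 137 and 156 genes were at least 8-fold apart in each pairing of a 24 h array with an A2780CP20 array. No gene was that far apart between any A2780CP20 array and any untreated A2780 or 48 h array. A group was counted as standing apart in a gene when its mean lay at least 2-fold above, or at least 2-fold below, each of the other 3 groups, those 3 lay within 2-fold of each other, and its arrays overlapped no other array. The 24 h group stood apart in 742 genes, 400 higher and 342 lower. The A2780CP20 group stood apart in 9, all lower, the 48 h group in 3 and untreated A2780 in 0. At 8-fold the count was 126 for the 24 h group and 0 for each other group. The A2780CP20 count depended on its replicates and was 55 without replicate 2 and 15 without replicate 1.

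**Figure D1:**
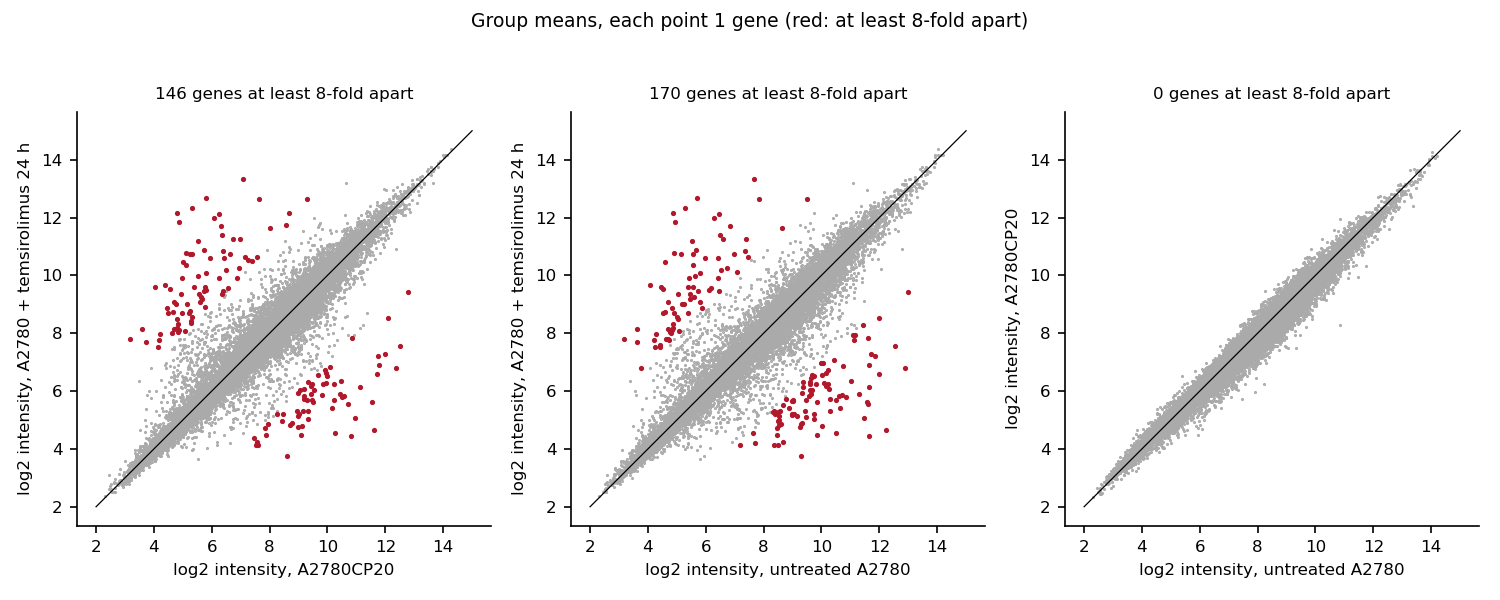
Group means in log2 intensity, 1 point per gene (XIST and genes on chromosome Y left out), with the line of equal values. The 24 h group is set against A2780CP20 (left) and untreated A2780 (middle), and A2780CP20 against untreated A2780 (right). Red points are at least 8-fold apart: 146, 170 and 0 genes.

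In the direct comparison, limma called 6206 of 18417 genes (33.7%) at an adjusted p under 0.05, against 7868 at an unadjusted p under 0.05. Of the genes tested, 3280 were higher in the 24 h arrays (17.8%) and 2926 lower (15.9%). Most called genes changed little, and 81.8% of them differed by less than 2-fold. At least 2-fold differences were found in 1132 genes, 655 higher and 477 lower. At least 8-fold differences were found in 146 genes, 80 higher and 66 lower. The arrays of the 2 groups overlapped in none of them, which held for all 6206 called genes. Over all 18417 genes, 11539 had no overlap. Leaving out 1 of the 24 h arrays lowered the number of called genes to 4012 or 3995, while the number at least 8-fold apart stayed between 142 and 154 whichever array was left out.

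The 48 h and untreated A2780 arrays, which do not enter that contrast, showed which side of a large difference was the unusual one. For all 146 genes at least 8-fold apart, both the untreated A2780 mean and the 48 h mean lay nearer to A2780CP20 than to the 24 h arrays. The untreated mean was within 2-fold of A2780CP20 in 141 of them and within 2-fold of the 24 h arrays in 0. For the 1132 genes at least 2-fold apart, untreated A2780 lay nearer to A2780CP20 in 1041 (92.0%) and the 48 h arrays in 1019 (90.0%). Over all 6206 called genes the shares were 65.3% and 62.3%. No test was made of these positions.

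The genes with the largest rise in the 24 h arrays included a mucin, claudins, a pump subunit and developmental regulators. Their means in A2780CP20 ran between 4.04 for MLIP and 7.08 for ANKRD1. Some thus lay below the lower quartile of every array there, and ANKRD1 lay above the array median. MUC15, a membrane mucin, had values of 12.18 and 12.13 in the 24 h arrays, against 4.74 and 4.83 in A2780CP20, a difference of 7.37 ± 0.09 (SE, 165-fold, adjusted p = 2e-09). Its 48 h values were 4.97 and 4.91 and its untreated A2780 values 4.86 and 4.85, so 6 arrays lay together and the 24 h pair alone was high. CLDN1, a strand protein of tight junctions, had 12.32 in both 24 h arrays, against 5.41 and 5.25 in A2780CP20 (127-fold). Its neighbour on chromosome 3, CLDN16, another claudin, was 51.1-fold higher. MID1, a ubiquitin ligase that binds microtubules, was 126-fold higher, and ATP1B1, the beta subunit of the sodium pump, had 12.70 and 12.62 in the 24 h arrays, against 5.92 and 5.66 in A2780CP20.

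ISL1 and EYA4, developmental transcription regulators, were 59.7-fold and 44.2-fold higher in the 24 h arrays. VGLL3, a cofactor of TEAD transcription factors, was 57.9-fold higher. SCN9A, a voltage-gated sodium channel, and LRRTM4, a synaptic adhesion protein, were 42.5-fold and 41.1-fold higher. P3H2, MLIP, PSD3 and ARHGAP28 completed the 15 genes with the largest rise, all at least 39.4-fold. In each of the 15 the 24 h arrays overlapped none of the other 6 arrays.

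The genes with the largest fall in the 24 h arrays included a WNT antagonist, matrix proteins and a mesenchymal repressor. DKK1, a secreted WNT antagonist, had 4.42 and 4.87 in the 24 h arrays, against 11.63 and 11.60 in A2780CP20, a difference of -6.97 ± 0.14 (SE, adjusted p = 1.37e-08). Its 48 h values were 12.46 and 12.44, and its untreated values 12.16 and 12.31. SNAI2, the mesenchymal repressor also called Slug, had 5.39 and 5.83 in the 24 h arrays, against 11.39 and 11.68 in A2780CP20. VCAN, a large matrix proteoglycan, had 5.06 and 5.08, against 10.82 and 11.09 in A2780CP20. All 3 genes were bright on 6 arrays and far lower on the 24 h pair. Only DKK1 fell below 5.03 there, the lowest lower quartile of any array.

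OSTN, a secreted peptide, was 83.6-fold lower in the 24 h arrays, and CYP1B1, a cytochrome P450, 47.2-fold lower. HAPLN1, which links hyaluronan to proteoglycans, was 35.8-fold lower. COL1A2, a chain of type I collagen, had 6.61 and 6.57 in the 24 h arrays, against 11.85 and 11.57 in A2780CP20. The imprinted gene MEST was 30.7-fold lower and the transcription factor MEF2C 26.4-fold lower. GPRIN3, CBLN2, NDST4, CDH10, TMEM88 and H1-5 completed the 15 genes with the largest fall. H1-5, a linker histone, belongs to a family of similar genes, so its value is uncertain.

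**Figure D2:**
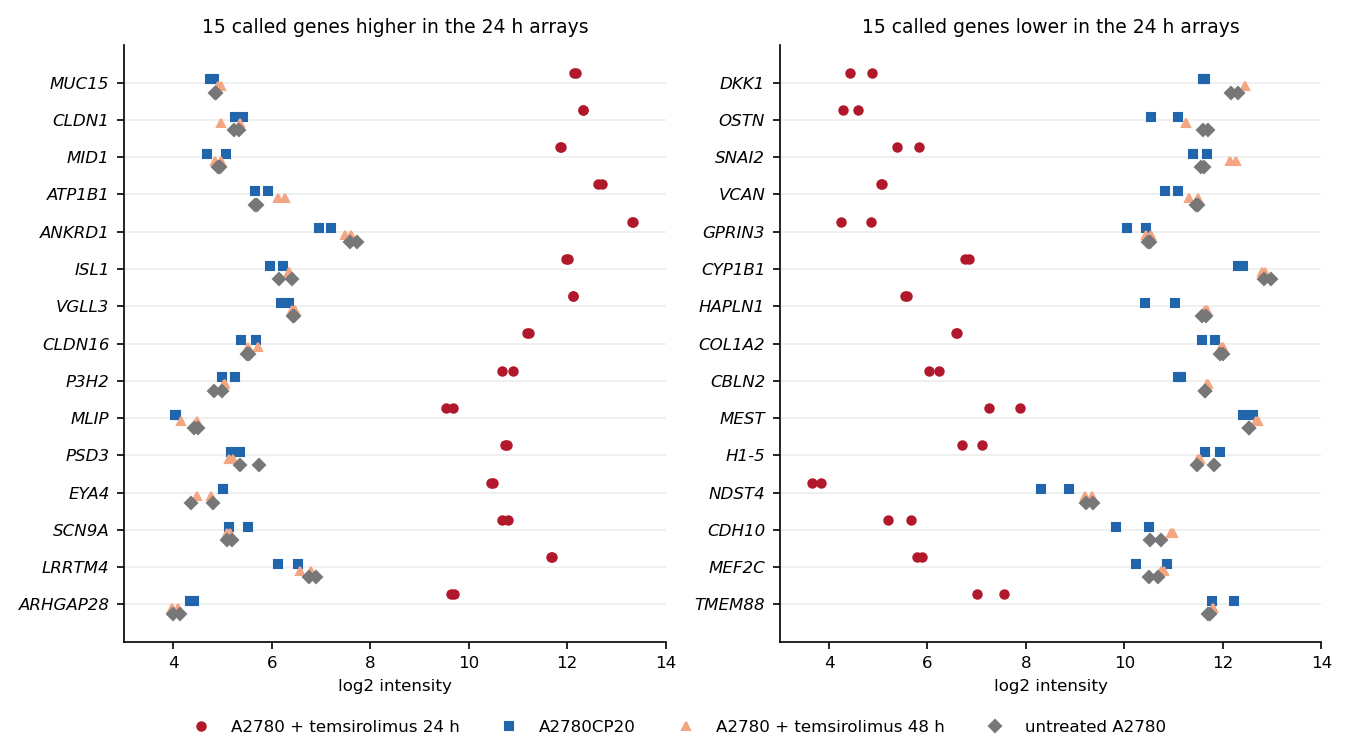
Log2 intensity on every array for the 15 genes with the largest rise (left) and the 15 with the largest fall (right) in the 24 h arrays against A2780CP20. The 24 h points lie on 1 side and the 6 points of A2780CP20, 48 h and untreated A2780 lie together on the other in all 30 genes.

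Some of these differences ran from below the lower quartile of every array to well above it. Values under 5.03, the lowest lower quartile of any array, were taken as dim and values of at least 8.03 as bright. On the 24 h arrays 12 genes were bright that were dim on all 6 other arrays, and 7 were dim that were bright on all 6. The 12 were ABCB1, ANXA1, ARHGAP28, DYNLT3, EYA4, MLIP, MUC15, PCGF5, PRKAA2, SPART, TRAPPC3L and VPS13C. The 7 were CALB1, DKK1, GPRIN3, NDST4, OSTN, PCDH20 and SATB1. No gene had such a pattern for A2780CP20, for 48 h or for untreated A2780. ANXA1, a phospholipid-binding annexin, had 8.71 and 8.67 in the 24 h arrays, against 4.53 and 4.45 in A2780CP20. SATB1, a chromatin organiser, had 4.96 and 4.57, against 8.71 and 9.25 in A2780CP20. These limits were chosen after the values were seen, and folds of dim genes may be understated.

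ANKRD1 and DKK1 moved in opposite directions and both hold the letters of a TEAD motif shortly before their start. ANKRD1, an ankyrin repeat protein known as a target of YAP and TEAD, had 13.32 and 13.34 in the 24 h arrays, against 7.21 and 6.95 in A2780CP20, a difference of 6.25 ± 0.11 (SE, adjusted p = 1.02e-08). The 180 bases before the RefSeq start of 5 genes described in the text (ANKRD1, ALDH1A1, CLDN1, DKK1 and VCAN) were searched on both strands. The letters sought were GGAATG for TEAD factors, TATAAA for the basal promoter element, CCAAT for the box of that name, CAGGTG for the E-box that Snail family factors bind, and TGANTCA for AP-1. The 2 stretches that held GGAATG are shown, with every match in capitals, because these genes are among the largest movers in each direction. They are from GRCh38.p14 in RefSeq, chr10:90921088-90921267 on the minus strand and chr10:52314101-52314280 on the plus strand, each written 5′ to 3′ up to the base before the start.
ANKRD1: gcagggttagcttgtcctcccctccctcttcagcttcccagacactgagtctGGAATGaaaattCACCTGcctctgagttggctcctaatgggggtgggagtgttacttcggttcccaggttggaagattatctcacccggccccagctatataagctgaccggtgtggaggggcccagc
DKK1: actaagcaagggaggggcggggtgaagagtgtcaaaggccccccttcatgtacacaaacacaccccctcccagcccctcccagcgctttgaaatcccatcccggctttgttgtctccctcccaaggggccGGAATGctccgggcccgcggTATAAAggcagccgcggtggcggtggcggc
In ANKRD1 the TEAD letters lie 128 to 123 bases before the start, followed by CACCTG, the E-box read on the other strand. In DKK1 they lie 50 to 45 bases before the start, with TATAAA 30 to 25 bases before it. Of 35116 RefSeq promoters, 8.55% hold GGAATG in the same window, 12.8% hold CAGGTG and 7.83% hold TATAAA. The genes were picked with their values known and a match of letters is only a description. The list of YAP and TEAD target genes, which includes ANKRD1, did not share 1 direction. Of 20 members, 6 were called higher and 6 lower (60.0% called, against 33.7% over all genes). Their median difference was -0.10, against -0.03 over all genes. That median was -0.15 without A2780CP20 replicate 1 and -0.04 without replicate 2.

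The mesenchymal and fibroblast lists had the lowest medians of the 34 lists. Of 24 mesenchymal factors and matrix genes, 4 were higher and 13 lower, with a median difference of -0.39. Of 10 fibroblast markers, 8 were lower and 0 higher, with a median of -1.36. Over all genes 17.8% were higher and 15.9% lower. These lists share members, COL1A2 among them, so their medians and counts are not independent. LUM, a small matrix proteoglycan, had 6.13 and 5.68 in the 24 h arrays, against 10.25 and 10.65 in A2780CP20. COL3A1, the chain of type III collagen, was 12.0-fold lower and DCN, decorin, 8.03-fold lower, and TWIST1, a mesenchymal transcription factor, fell by 1.74 ± 0.09 on the log2 scale (SE). Other members went the other way or were not called. POSTN, periostin, rose by 3.47 and TAGLN, a smooth muscle actin-binding protein, by 2.19. VIM, vimentin, had 12.90 and 12.91, against 12.78 and 12.66 in A2780CP20, and was not called (adjusted p = 0.151).

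The bright fibroblast markers were as high in untreated A2780 as in A2780CP20. The median level of the 10 markers was 6.24 to 6.37 on the 24 h arrays, against 9.20 to 9.23 on the A2780CP20 arrays, and 8.94 to 9.02 on the untreated A2780 arrays. Of 11 endothelial markers 0 were called, and the median level of that list lay between 5.32 and 5.74 on every array, although EGFL7 was brighter, at 8.08 and 8.07 in the 24 h arrays, against 8.42 and 8.24 in A2780CP20. Of 14 immune markers 1 was called higher and 2 lower (21.4% called, against 33.7% over all genes). PTPRC, the leukocyte marker CD45, was called higher but was dim in both groups, at 4.48 and 4.54 in the 24 h arrays, against 4.06 and 3.95 in A2780CP20. CD68, a lysosomal protein of macrophages and other cells, had 7.15 and 7.54, against 8.36 and 8.41 in A2780CP20. In bulk RNA, fewer cells of a type and less RNA per cell cannot be told apart.

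Of 23 junction and keratin genes, 7 were higher and 1 lower, so that 34.8% were called, near the 33.7% over all genes. Their median of -0.02 turned positive when an A2780CP20 array was left out, at 0.08 without replicate 1 and 0.07 without replicate 2, and was 0.12 without replicate 2 of the 24 h arrays. EPCAM, an epithelial adhesion protein, had 7.67 and 7.80 in the 24 h arrays, against 5.26 and 5.34 in A2780CP20, a difference of 2.44 ± 0.11 (SE, adjusted p = 8.15e-07). KRT18 was 9.71-fold higher, an uncertain value because it has many processed pseudogenes, and its keratin partner KRT8 was not called at 6.65 and 6.71, against 6.61 and 6.38 in A2780CP20. CDH1, E-cadherin, was not called either, at 5.42 and 5.32, against 5.76 and 5.33 in A2780CP20. PAX8, a marker of Mullerian epithelium, had 6.74 and 6.49, against 6.71 and 6.77 in A2780CP20 (adjusted p = 0.495).

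Some positional and oncofetal genes also separated the groups. Of 27 HOX cluster genes, 4 were higher and 10 lower in the 24 h arrays (51.9% called, against 33.7% over all genes). Their median difference was -0.14, against -0.03 over all genes. HOXC11 had 5.57 and 5.78 in the 24 h arrays, against 9.21 and 9.40 in A2780CP20, and HOXC13 and HOXC12 were 6.13-fold and 5.72-fold lower, while HOXB4 rose by 0.90 on the log2 scale. LIN28A, an RNA-binding protein of embryonic cells that blocks let-7 processing, had 6.24 and 6.23, against 10.11 and 10.31 in A2780CP20, a difference of -3.98 ± 0.10 (SE, adjusted p = 3.29e-08). TRIM71, another target of let-7, fell by 1.50 and HMGA1 by 1.13. Of 15 oncofetal and stem cell genes, 7 were lower and 1 higher (53.3% called), with a median difference of -0.2. The 1 that rose was ALDH1A1, a retinal dehydrogenase used as a stem cell marker, with 8.50 and 8.33 in the 24 h arrays, against 5.40 and 5.19 in A2780CP20 (8.69-fold).

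**Figure D3:**
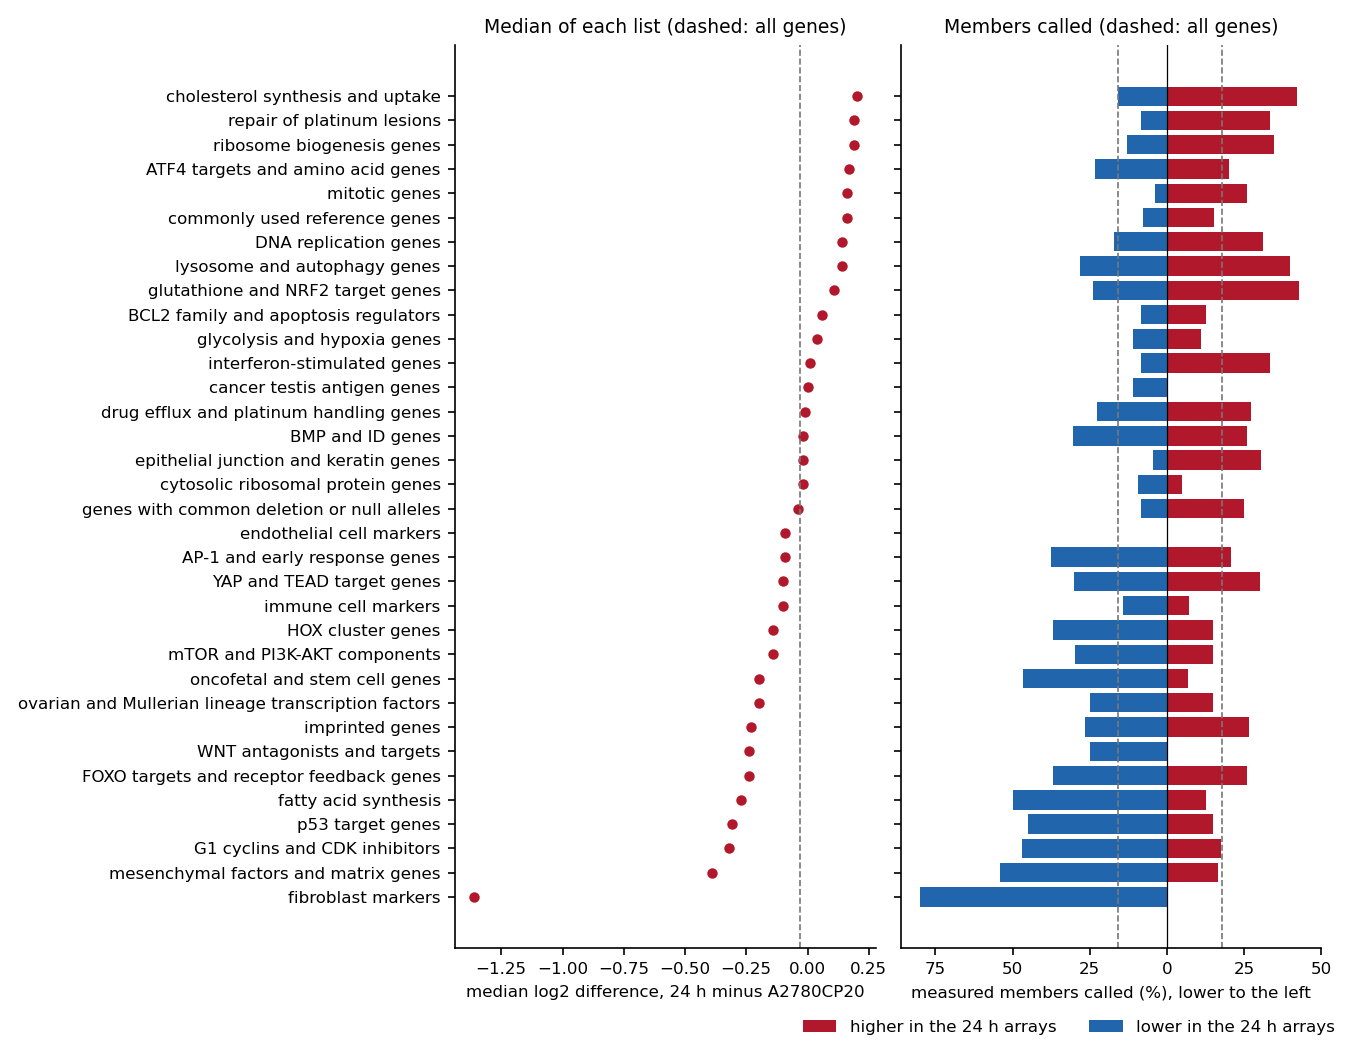
Median log2 difference of each of 34 gene lists, 24 h minus A2780CP20 (left), and the share of measured members called higher (red, to the right) or lower (blue, to the left) in the 24 h arrays, as percent (right). Dashed lines give the same over all 18417 genes. Fibroblast markers lie lowest, at -1.36, and mesenchymal factors and matrix genes next, at -0.39. These lists share members.

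The efflux pump ABCB1 (P-glycoprotein) was high in the 24 h arrays alone. It had 8.31 and 8.05 in the 24 h arrays, against 4.91 and 4.70 in A2780CP20, a difference of 3.38 ± 0.12 (SE, adjusted p = 2.03e-07). It was 4.67 and 4.63 at 48 h and 4.88 and 4.86 in untreated A2780, so A2780CP20 was no higher than its parent line in this gene. ABCC1, another efflux pump, went the other way with 8.57 and 8.55, against 9.27 and 9.60 in A2780CP20, and the copper pump ATP7B had 7.04 and 6.64, against 7.81 and 7.94. ABCC2, ABCG2, ATP7A and the copper importer SLC31A1 were not called. Over 22 drug efflux and platinum handling genes, 6 were higher and 5 lower, against 17.8% higher and 15.9% lower over all genes. The median difference of the list was -0.01.

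Genes of glutathione and oxidative defence moved in both directions. Of 21 glutathione and NRF2 target genes, 9 were higher and 5 lower in the 24 h arrays (66.7% called, against 33.7% over all genes). The cystine importer SLC7A11 had 7.91 and 7.86, against 5.89 and 5.71 in A2780CP20, and GCLM, a subunit of the enzyme that starts glutathione synthesis, rose by 1.11. Against them, AKR1C3, an aldo-keto reductase, was 19.6-fold lower and NQO1 fell by 1.01. AKR1C1 and AKR1C2 were lower too, but these near-identical genes may share probe signal. GSTP1, the glutathione transferase most often linked to platinum, had 12.01 and 12.03, against 11.94 and 12.04 in A2780CP20 (adjusted p = 0.854).

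Repair, apoptosis and p53 target genes held members that rose and members that fell. Of 24 genes for repair of platinum lesions, 8 were higher and 2 lower (41.7% called, against 33.7% over all genes). Their median of 0.19 was 0.12 without A2780CP20 replicate 1 and 0.30 without replicate 2. Against untreated A2780, which both differences share, the list median was -0.06 for the 24 h arrays and -0.30 for A2780CP20. ERCC4, a nuclease subunit of crosslink repair, had 8.86 and 8.81 in the 24 h arrays, against 7.70 and 7.79 in A2780CP20, while MSH6, a mismatch repair protein, had 9.38 and 9.49, against 10.40 and 10.30. ERCC1, the partner of ERCC4, and BRCA1 were not called. Of 24 BCL2 family and apoptosis regulators, 3 were higher and 2 lower (20.8% called, below the 33.7% over all genes), with a median of 0.06. CASP8 and CASP9, initiator caspases, rose by 1.52 each and PMAIP1, the BH3-only protein NOXA, by 1.77, and BAX fell by 0.80. Of 20 p53 target genes, 3 were higher and 9 lower (60.0% called). Among the lower were TP53I3 at -1.56 and SESN2 at -1.18, and ZMAT3 was higher by 1.92.

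Genes of the drug's own pathway were measured next. MTOR had 9.18 and 9.17 in the 24 h arrays, against 9.24 and 9.49 in A2780CP20, and was not called (adjusted p = 0.202). FKBP1A and RPS6KB1, the drug's binding protein and the S6 kinase downstream, were not called. FKBP1A has 2 probe sets and only the one with the higher mean was read, so its value is less certain. RPTOR, the scaffold that defines mTORC1, had 8.08 and 8.07, against 9.15 and 9.13 in A2780CP20, a difference of -1.06 ± 0.09 (SE, adjusted p = 3.28e-05). Its gene lies in the stretch of chromosome 17 described below. PDCD4, a translation inhibitor that S6 kinase marks for degradation, had 7.91 and 7.89, against 9.79 and 9.64 in A2780CP20. Of 27 mTOR and PI3K-AKT components, 4 were higher and 8 lower (44.4% called, against 33.7% over all genes).

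Receptor and FOXO target genes moved in both directions. IRS1, an insulin receptor substrate on which mTORC1 feedback acts, had 5.54 and 5.42 in the 24 h arrays, against 7.01 and 7.26 in A2780CP20, and the insulin receptor gene INSR fell by 1.20. CCNG2, a FOXO target, fell by 1.10. ARRDC3 and CITED2 rose by 2.32 and 2.02. Over 27 genes of this list, 7 were higher and 10 lower, against 17.8% higher and 15.9% lower over all genes. The median was -0.24, and -0.09 without A2780CP20 replicate 2. The same list had a median of -0.50 for 24 h minus untreated A2780, of -0.24 for A2780CP20 minus untreated A2780 and of 0.00 for 48 h minus untreated A2780. These share the untreated arrays.

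Lipid, growth and signalling genes gave no single direction between the groups. FASN, fatty acid synthase, had 9.86 and 9.90 in the 24 h arrays, against 11.19 and 11.22 in A2780CP20, and SREBF1, its activator, had 8.55 and 8.57, against 9.60 and 9.44. STARD4, a cholesterol transfer protein, was 5.37-fold higher in the 24 h arrays. Of 16 fatty acid synthesis genes, 2 were higher and 8 lower (62.5% called, against 33.7% over all genes). Of 19 cholesterol genes, 8 were higher and 3 lower (57.9% called). MYC had 10.55 and 10.56, against 11.43 and 11.85 in A2780CP20, and CCND1, cyclin D1, had 9.54 and 9.56, against 10.46 and 10.51. Both were lower in the 24 h arrays than on any other array. Among 23 ribosome biogenesis genes 8 rose and 3 fell (47.8% called), and among 29 DNA replication genes 9 rose and 5 fell (48.3% called). Only 3 of 21 ribosomal protein genes were called, RPL10 higher, RPL13 and RPL22 lower, each with processed pseudogenes that make its value uncertain.

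The early response gene JUN had 8.01 and 7.91 in the 24 h arrays, against 5.87 and 5.83 in A2780CP20 (4.32-fold), and EGR1 rose by 1.56. SPRY4, SPRED2 and ETV5, which follow ERK signalling, fell by 2.92, 1.30 and 1.02, and SPRY2 rose by 2.02. Besides DKK1, the WNT antagonists SFRP1 and WIF1 fell by 2.48 and 2.23, and of 24 WNT antagonists and targets 6 were called lower and 0 higher (over all genes 15.9% were lower and 17.8% higher). The BMP ligands BMP5 and BMP7 fell by 2.86 and 1.79, and BMP5 was also lower in A2780CP20 than in untreated A2780 (-1.52). Of 23 BMP and ID genes, 6 were higher and 7 lower (56.5% called, against 33.7% over all genes), with a median of -0.02.

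A small set of genes placed the 24 h arrays beside A2780CP20 and away from the other 4 arrays. The means of the 2 groups had to lie within 2-fold of each other, and so had those of 48 h and untreated A2780. By this rule both groups lay at least 2-fold below 48 h and untreated A2780 in 21 genes, and above them in 0. HBP1, a transcription repressor under FOXO control, had 7.54 and 7.36 in the 24 h arrays and 7.24 and 7.71 in A2780CP20, against 9.46 and 9.45 at 48 h and 9.24 and 9.40 in untreated A2780. TXNIP, a glucose-responsive arrestin that lowers glucose uptake, had 9.16 and 8.99 in the 24 h arrays and 8.14 and 8.46 in A2780CP20, against 10.33 and 10.27 at 48 h and 10.90 and 10.81 in untreated A2780. The set also held KLHL24, BNIP3L, YPEL5, SMIM14, TCP11L2 and CYBRD1. CDKN1B (p27) was below untreated A2780 by more than 2-fold at 24 h (-1.15) and by less in A2780CP20 (-0.79), with 9.34 and 9.31 in the 24 h arrays and 9.75 and 9.62 in A2780CP20, against 10.54 and 10.51 at 48 h and 10.45 and 10.50 in untreated A2780. At 4-fold the set held 0 genes, and the search was added after the values were seen.

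Another set, found by the same rule, placed the 24 h and 48 h arrays together, but it held 2 genes at 2-fold, ID1 and GLRX. ID1, an inhibitor of DNA-binding helix-loop-helix factors that BMP signals induce, had 10.61 and 10.62 at 24 h and 10.82 and 10.75 at 48 h, against 9.49 and 9.55 in A2780CP20 and 8.57 and 8.53 in untreated A2780. A2780CP20 was itself above untreated A2780. ID2 and ID3 had A2780CP20 above untreated A2780 as well, ID2 with 9.50 and 9.52 at 24 h, 9.49 and 9.46 in A2780CP20 and 10.62 and 10.72 at 48 h, against 8.22 and 8.28 in untreated A2780. NOG, a BMP antagonist, did not follow them, with 6.43 and 5.81 at 24 h and 8.32 and 8.36 in A2780CP20, against 9.89 and 9.86 at 48 h and 8.15 and 8.08 in untreated A2780. GLRX, glutaredoxin, averaged 8.11 at 24 h and 8.18 at 48 h, against 6.94 in A2780CP20 and 6.50 in untreated A2780. By the same rule no gene paired the 24 h arrays with untreated A2780 against the other 2 groups.

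**Figure D4:**
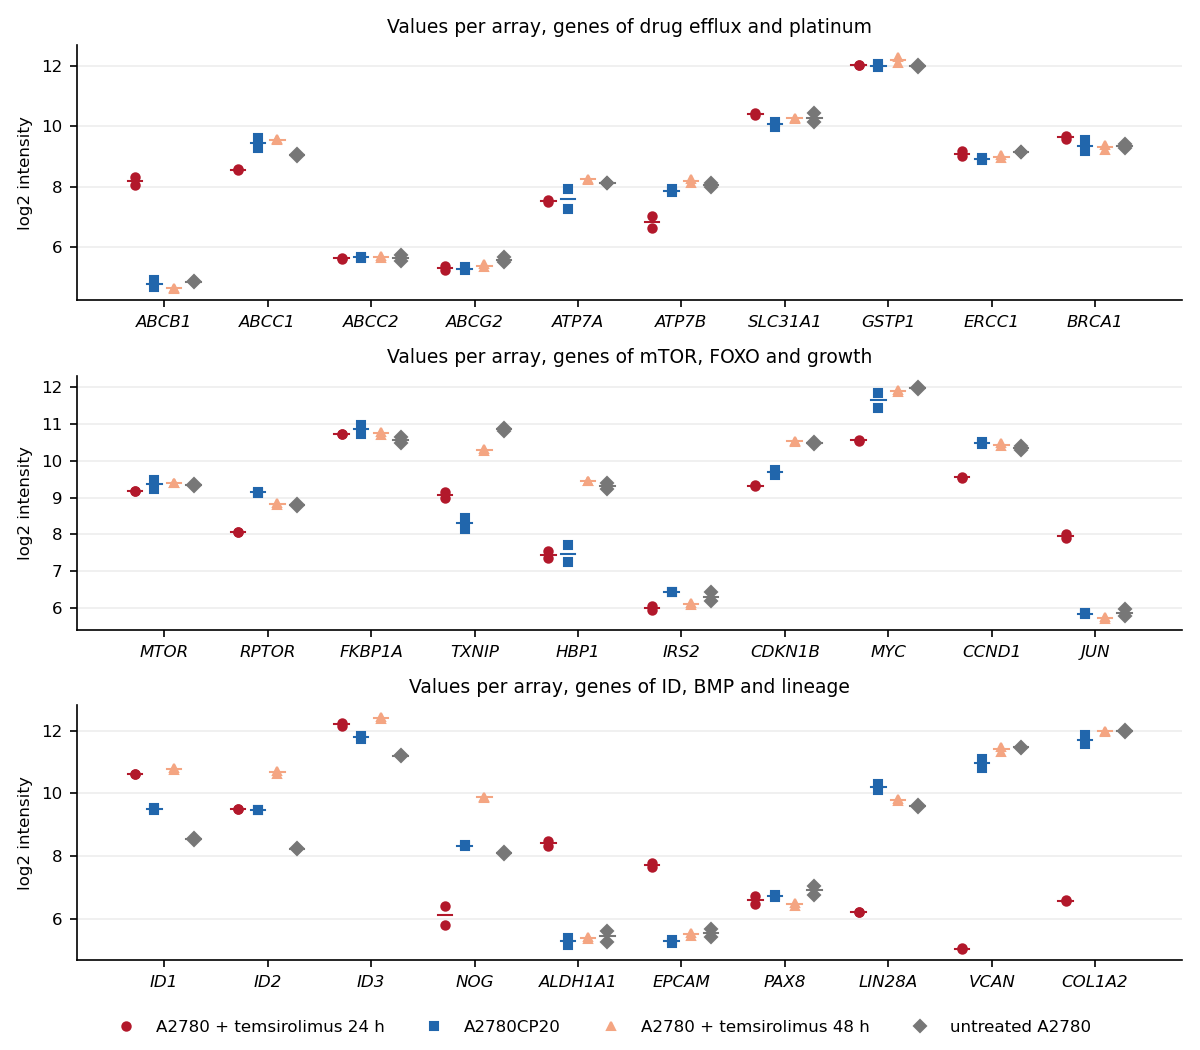
Log2 intensity per array (points) and group mean (bars) of genes of drug efflux and platinum handling (top), mTOR, FOXO and growth (middle) and ID, BMP and lineage (bottom). HBP1 and TXNIP are low in both the 24 h and A2780CP20 groups, ID1 is high at 24 h and 48 h, and ABCB1, JUN, ALDH1A1 and EPCAM are high in the 24 h arrays alone.

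Where A2780CP20 stood apart from all 3 other groups, the gap was small, with 9 genes at 2-fold and 0 at 4-fold. That count needs the other 3 groups to lie within 2-fold of each other, so it leaves out genes that also changed at 24 h. TXNIP and HBP1 were such genes, at -2.56 and -1.84 for A2780CP20 minus untreated A2780. PNPLA8, a phospholipase, had 7.52 and 7.53 in the 24 h arrays, against 6.08 and 6.40 in A2780CP20, with 7.73 and 7.77 at 48 h. MSMO1, an enzyme of cholesterol synthesis, had 10.06 and 9.85 in the 24 h arrays, against 8.58 in both A2780CP20 arrays, with 9.82 and 9.96 in untreated A2780. ARRDC4, an arrestin related to TXNIP, had 7.81 and 7.79 in the 24 h arrays, against 5.97 and 6.17 in A2780CP20. SLC38A9, a lysosomal amino acid sensor upstream of mTORC1, and SEPSECS, an enzyme of selenocysteine synthesis, were lower in A2780CP20 than in the 24 h arrays by 1.21 and 1.16. SLC7A5, a leucine importer, went the other way, with 10.97 and 11.01 in the 24 h arrays, against 11.89 and 12.04 in A2780CP20 and 10.78 and 10.89 in untreated A2780.

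Neighbouring genes shifted together in blocks between the groups. The median difference of expressed genes was taken for each chromosome, relative to all expressed genes, and for runs of 25 neighbouring expressed genes. Against A2780CP20, the 24 h arrays were lowest on chromosomes 13 (-0.25), 17 (-0.19) and 19 (-0.19), and highest on chromosome 4 (0.22). Untreated A2780 placed these shifts on different sides. For 24 h minus untreated A2780 they were -0.44 on chromosome 13, -0.07 on 17, -0.02 on 19 and 0.05 on 4. For A2780CP20 minus untreated A2780 they were -0.20, 0.11, 0.20 and -0.17 on the same chromosomes. The shifts of 19 and 4 thus lay mainly in A2780CP20, and that of chromosome 17 as a whole lay partly in each group. Replicates differed on any chromosome by at most 0.01 at 24 h and 0.09 in A2780CP20. For replicate 1 minus replicate 2 of A2780CP20 the values were 0.09 on chromosome 19 and -0.09 on 4. These have the same signs as the A2780CP20 shifts there, so the size of those shifts depended on the replicate. On chromosome 13 the last 3 runs lay at -0.46, -0.71 and -0.54, the lowest of them between PCDH17 and RAP2A. The same runs lay at -0.52, -1.04 and -0.77 for 24 h minus untreated A2780, and at -0.12, -0.29 and -0.23 for A2780CP20 minus untreated A2780. On chromosome 17 all 8 runs after SNF8, from IGF2BP1 to MAFG, lay between -0.21 and -0.61, the lowest ending at RPTOR. The same 8 runs lay between -0.07 and -0.81 for 24 h minus untreated A2780, and between -0.17 and 0.29 for A2780CP20 minus untreated A2780. Runs near the start of the RefSeq order of chromosome 2 (NCOA1 to ZNF513, -0.45) and near the end of chromosome 1 (SNAP47 to ARV1, -0.48) were also low.

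Shifts of this size were not found between replicates or at 48 h, though runs between the A2780CP20 replicates spanned -0.28 to 0.23. No run passed 0.3 in size for 48 h minus untreated A2780 or for replicate 1 minus replicate 2 in any group, while 46 of 356 did for 24 h minus A2780CP20, 19 for 24 h minus untreated A2780 and 34 for A2780CP20 minus untreated A2780. With genes divided into 5 bins of promoter GC content, the median of A2780CP20 minus untreated A2780 was -0.15 in the lowest bin and 0.07 in the highest, and that of 24 h minus untreated A2780 was -0.045 in both. With each bin centred on its own median, the A2780CP20 minus untreated A2780 shifts stood at 0.19 on chromosome 19, -0.17 on 4, -0.21 on 13 and 0.11 on 17. For 24 h minus A2780CP20 the centred values were -0.30 on chromosome 13, -0.21 on 17, -0.18 on 19 and 0.23 on 4. Promoter GC was known for 82.2% of expressed genes, with none of chromosome 8. DNA copies were not measured, and the part of RNA quality or of copy number in these shifts was not tested.

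**Figure D5:**
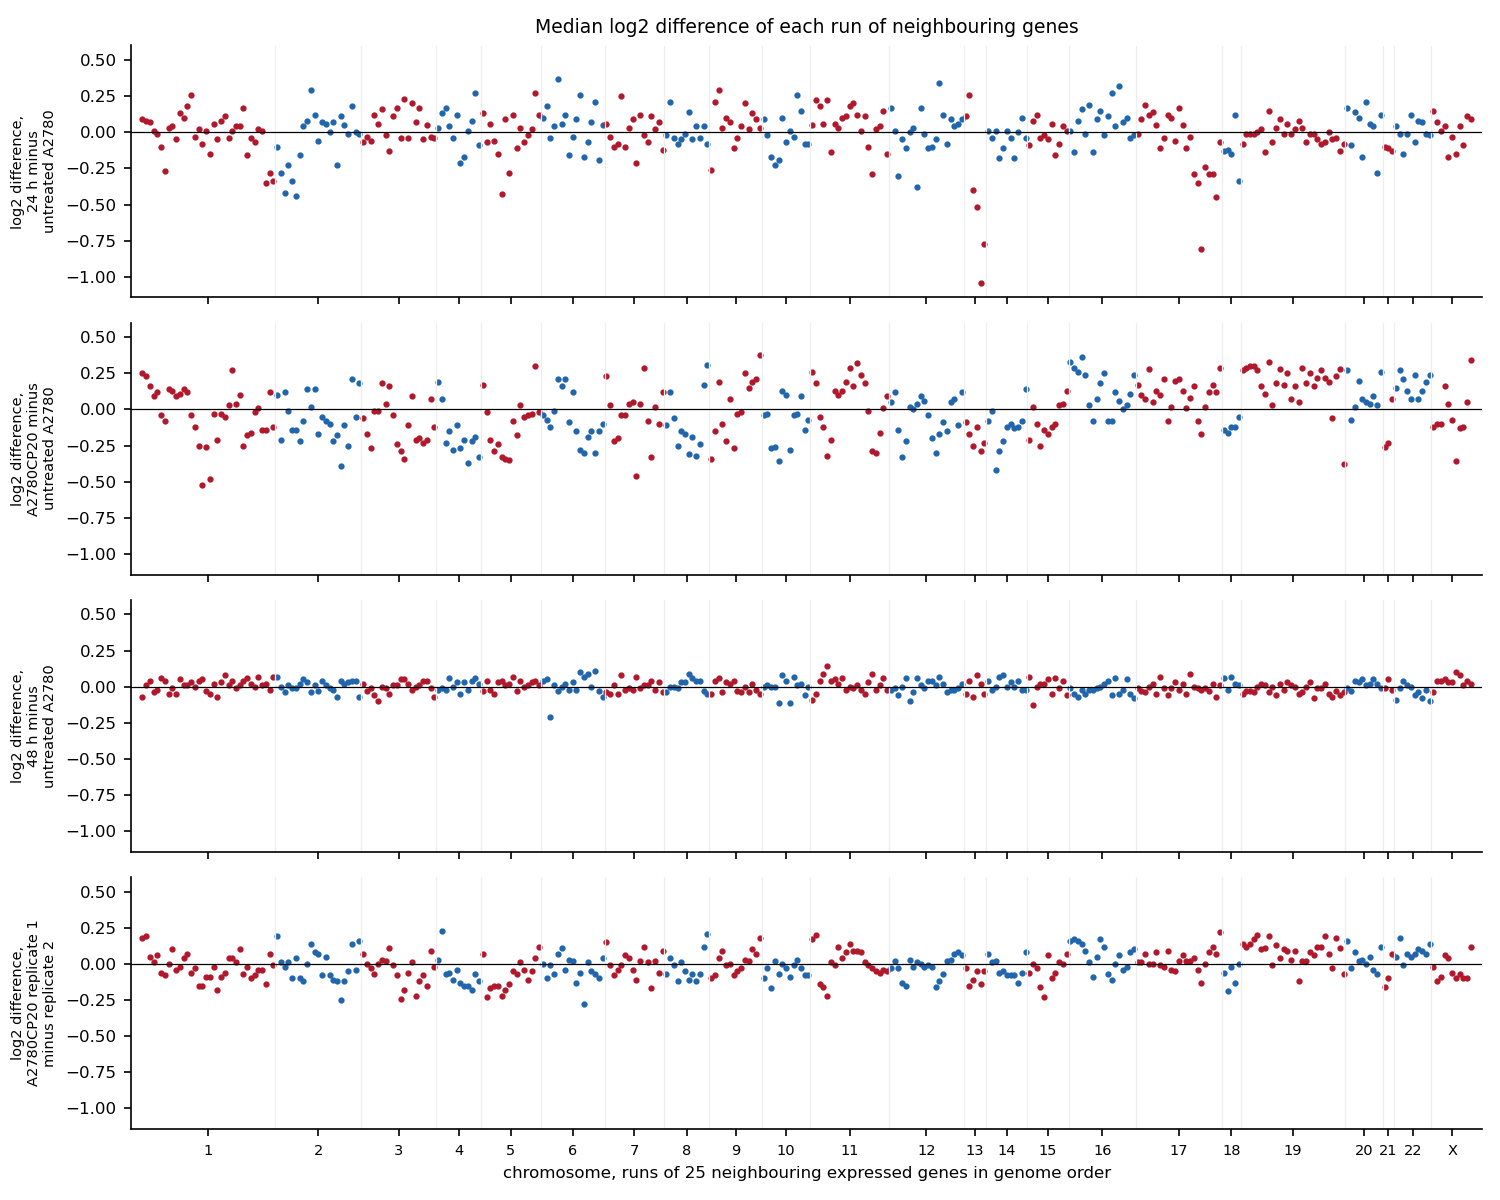
Median log2 difference of each run of 25 neighbouring expressed genes, relative to all expressed genes, in genome order with chromosomes in alternating colours. From the top: 24 h, A2780CP20 and 48 h, each minus untreated A2780, and replicate 1 minus replicate 2 of A2780CP20. Runs on chromosome 13 reach -1.04 in the top panel and -0.29 in the second, runs late on chromosome 17 reach -0.81 and -0.17, and the 48 h runs lie between -0.21 and 0.14.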

How the data were processed

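Each of the 8 Affymetrix Human Gene 1.0 ST arrays gave 1 column of 33297 probe set values. The values the authors deposited lie between 1.8 and 14.99, read here as log2 intensities from that range. Per the submitters' processing notes the tool was Partek, its version and role unnamed. How background was corrected and arrays normalized is not stated there. Groups and replicate numbers came from the titles. The 19460 probe sets with 1 symbol were used, and the one with the highest mean stood for a gene, leaving 18417 genes.

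Group means were estimated from all 8 arrays together in limma 3.58.1 (R 4.3.3). Moderated two-sided tests of 24 h minus A2780CP20 used 4 residual and 4.48 prior degrees of freedom, and p-values were adjusted by Benjamini-Hochberg over all 18417 genes. The test was checked on simulated data. A gene was called at an adjusted p under 0.05, and errors are standard errors of the fit. An exact permutation test of 2 arrays against 2 cannot give a p below 0.333, so none is given.

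The genes named were the 15 largest rises and 15 largest falls without overlap, the 10 largest gaps of each group that stands apart, up to 4 called members of each of 34 lists (up to 2 where none was called), and a fixed set of drug, resistance and lineage genes. Others named with a pattern, as list members or as examples were chosen after their values were seen. Members and lists were chosen with earlier results of these data known. Small RNAs, Y-linked genes and XIST were left out of the names. Promoter sequences and gene order are from RefSeq, GRCh38.p14. Alternatives were other normalizations, filters, probe set rules, priors, array weights, a replicate block and leaving out each array.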

Additional observations from a re-analysis of the deposited data

Results flagged for a closer look

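The 13837 probe sets with no gene symbol or several symbols were outside the comparison and still held large differences. With every probe set tested by limma and adjusted over all of them, 1809 were called (13.1%), against 26.5% of the probe sets with 1 symbol. Of the 1809, 21 were at least 8-fold apart between the 24 h and A2780CP20 arrays, 9 higher and 12 lower in the 24 h arrays. They are not named because the annotation gives them no single gene.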

How the results depend on the processing

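The count of called genes (6206) ranged from 3995 to 7088 when 1 array was left out, with 2165 to 3720 higher (3280 with all arrays) and 1821 to 3368 lower (2926). Both low ends came without 1 of the 24 h arrays, which leaves a lone array assumed to vary like the other groups. The number of genes in which A2780CP20 stood apart (9) ranged from 6 to 55, highest without its replicate 2. The genes at least 8-fold apart (146) numbered 129 to 154 under the alternatives that count genes, and 171 were found when every probe set was counted, several for some genes. With a replicate block the count was 6414. The replicate numbers were not taken to pair the arrays, since the correlations of replicate differences across genes did not all pass 0.1. They were 0.002 to 0.039 for the pairs of groups with the 24 h arrays and 0.117 to 0.181 for the others. With only the 4 arrays compared the count was 4446, and with array weights 4826. Centring arrays on their medians gave 3606 higher and 2530 lower. Of 151 called genes named by the rule, 0 to 7 lost their call under an alternative and none changed direction. Those that lost it included EIF4EBP1, CDKN1B, IRS2, ID3, ESR1 and RPL10. SLC31A1, not called, passed the threshold under 6 alternatives. ATP7A took opposite signs by the A2780CP20 array left out, at -0.38 without replicate 1 and 0.27 without replicate 2. Of 34 list medians, 16 moved by more than the spread between replicates without A2780CP20 replicate 1, 15 without its replicate 2, 12 with quantile normalization, 11 with median centring and 6 without the dimmest 25% of genes, where the mesenchymal median was -0.82. Of 6 chromosome shifts, 3 moved without either A2780CP20 array, chromosome 19 (-0.19) to -0.13 without replicate 1 and -0.25 without replicate 2. Centring promoter GC bins, added after the values were seen, moved 4 of 6, chromosome 22 (-0.16) to -0.10 and chromosome 3 (0.12) to 0.08. Signal over background was not given, so dim genes have no detection limit here.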
